A study of Salix matsudana with 3 samples.

Results

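In roots and stems of Salix matsudana, the Chinese willow, 10 of 205 listed miRNA entries belonged to the nutrient families miR395, miR399, miR827 and miR2111. They were taken by family number, and the families were chosen with earlier results of these data known. The entries comprised 4 of miR395, 3 of miR399, 2 of miR827 and 1 of miR2111. The same family numbers accounted for 102 of 981 listed combinations of entry and degradome site, called pairs here, which fall on 40 of 653 distinct combinations of gene symbol and cleavage position. All plants are labelled as 30 days old. A small RNA library came from plants without salt. The other came from plants kept in a solution of 100 mmol per litre NaCl for 2 days, and both organs went into each library. A degradome library, in which the 5′ ends of cleaved messenger RNAs are read, was made once from RNA of both conditions mixed. How many plants each library pooled is not stated, and no list of markers was used to check the organs.

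In plants, miR395 accumulates when sulphate is short and directs cleavage of transcripts for ATP sulfurylases, the enzymes that activate sulphate, and for a low-affinity sulphate transporter. miR399 and miR827 belong to the phosphate starvation response. miR399 acts on PHO2, also named UBC24, a ubiquitin-conjugating enzyme that limits phosphate uptake, and in Arabidopsis miR827 acts on NLA, a ubiquitin ligase for phosphate transporters. miR2111 also responds to phosphate in Arabidopsis, where it targets the kelch-repeat F-box gene At3g27150, and in the legume Lotus japonicus it acts from shoot to root on the nodulation regulator TML.

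The mature sequences of all 10 entries follow, because the sites and the family differences described afterwards turn on a few bases. Capitals mark the seed, bases 2 to 8 counted from the 5′ end, and the letters are DNA letters as deposited.
ppe-miR395c: cTGAAGTGtttgggggaactc
aly-miR395c-3p_1ss17GA: cTGAAGTGtttgggggaactt
ptc-miR395b_R-3: cTGAAGTGtttgggggaa
ptc-MIR395d-p5: gTTCCTCTgagcacttcact
vvi-miR399b: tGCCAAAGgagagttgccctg
ptc-miR399e: cGCCAAAGgagagttgccctc
ppe-miR399b_L-2R+2: tGCCAAAGgagaattgccctg
mdm-miR827: tTAGATGAccatcaacgaaca
ptc-miR827_L+3R-1_1ss23AC: aTATTAGAtgaccatcaacgaac
ptc-miR2111a: tAATCTGCatcctgaggtttg

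The 3 miR395 entries of the 3′ arm share the seed TGAAGTG, and the 3 miR399 entries share GCCAAAG. Substitutions are written with the base of the first-named entry, its position from the 5′ end and the base of the second. From ppe-miR395c to aly-miR395c-3p_1ss17GA the only difference was C21T, and ptc-miR395b_R-3 equals the first 18 bases of ppe-miR395c. From vvi-miR399b to ptc-miR399e there were 2 differences, T1C and G21C, and from vvi-miR399b to ppe-miR399b_L-2R+2 there was 1, G13A. The entry ptc-miR827_L+3R-1_1ss23AC begins 3 bases before mdm-miR827 and shares 20 of its 21 bases, so its seed is shifted to TATTAGA.

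Of these entries, 2 had a listed precursor, and both came from the same miR395 hairpin, at positions 196 to 287 of contig c10335_f1p0_2092_1_2kb. It is shown because it is the deposited source of ptc-MIR395d-p5, the only 5′ arm entry of miR395, and because it also carries a miR395 3′ arm. Capitals mark the arms as deposited.
miR395 precursor: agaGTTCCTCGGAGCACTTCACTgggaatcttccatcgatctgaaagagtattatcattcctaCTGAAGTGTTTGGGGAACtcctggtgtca
The predicted minimum free energy fold of its 92 bases had -34.9 kcal/mol, and 18 of the 20 bases of the 5′ arm were paired with the 3′ arm or the 4 bases on either side of it. Neither listed mature sequence occurs exactly in this precursor. ptc-MIR395d-p5 differs from it by T8G, the entry's base first. ptc-miR395b_R-3, laid on the 3′ arm without gaps, differs by G16A and A18C, because its run of 5 G bases meets a run of 4 in the precursor. Across the table, 55 of 84 entries with a precursor (65.5%) occur exactly in it. The exact genomic source of these reads was not identified here.

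Depth differed 6.30-fold, with 4622984 listed reads without salt and 734026 with salt. Levels are given as reads per 1000000 listed miRNA reads (RPM), so that 1 read was worth 0.216 RPM without salt and 1.36 RPM with salt. Where no read was found, the count allows up to 3, a limit of 0.649 and 4.09 RPM. With 1 library per condition there is no replicate check. The 95% intervals are exact, from the binomial distribution, and they cover counting error only. The salt treatment cannot be told apart from the 2 days that passed, and fewer cells of a type cannot be told apart from less RNA per cell. A different mix of roots and stems in the libraries cannot be told apart from either.

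The 4 families were minor components of the small RNA pool. Their summed share was 0.0483% of untreated reads and 0.0365% of salt reads. It was thus 1.33-fold lower with salt (95% interval 1.17 to 1.51). Of 76 numbered families ranked by level, miR827 stood at rank 32 without salt and at rank 38 with salt. miR395 moved from rank 34 to 35, miR399 from rank 40 to 36 and miR2111 from rank 42 to 41. The make-up of the group differed between the libraries. miR827 supplied 45.5% of its untreated and 19.8% of its salt reads, while miR399 supplied 11.9% and 35.0%. The share of miR395 was 36.5% and 35.1%, and that of miR2111 was 6.0% and 10.1%.

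**Figure D1:**
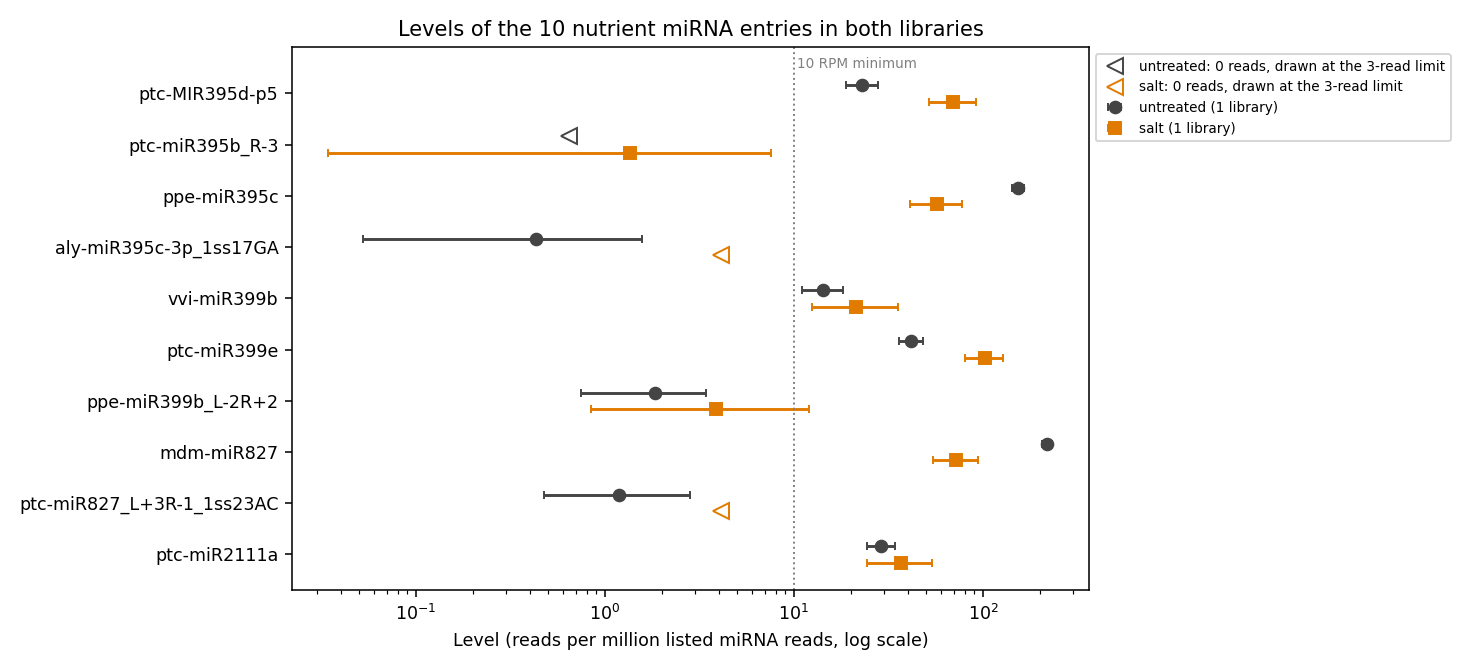
Level of each of the 10 entries in the untreated (circles) and salt (squares) library, in RPM on a log axis, with exact 95% counting intervals and 1 library per condition. Open triangles stand for 0 reads and are drawn at the 3-read limit, and the dotted line is the 10 RPM level minimum. mdm-miR827 and ppe-miR395c lie lower in the salt library, ptc-MIR395d-p5 and ptc-miR399e higher.

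A mean level of at least 10 RPM was reached by 6 of the 10 entries. Their ratios of salt over untreated were taken as log2 of level + 1, and an entry was called at 2-fold or more. Folds and their intervals are given throughout without this added 1 RPM, so a fold and the log2 value beside it differ slightly. In the salt library 2 of the 6 were higher and 2 lower. Over all 115 entries at this minimum 32.2% were called higher and 13.0% lower, so 2 of 6 higher is close to the background, and 2 lower of 6 is too few to set apart from it. The median log2 ratio was 0.44 for the 6 entries and 0.33 for all 115. Without the 5 most abundant entries in the totals, 0 of the 6 were higher and 2 lower, against 20.0% and 35.7% over all entries, and the median of all entries shifted by -0.96. Without miR159, 1 was higher and 2 lower, against 27.8% and 20.9%, and with the median of ratios the same counts stood against 27.0% and 23.5%. The counts stayed at 2 and 2 with each distinct sequence counted once (31.3% and 15.7% over all entries) and without possible rRNA or tRNA fragments (35.7% and 9.57%).

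Among the phosphate families, miR399 stood higher in the salt library. Its most abundant entry, ptc-miR399e, had 192 estimated reads without salt and 75.2 with salt, where an equal share would give 30.4. These correspond to 41.5 RPM (35.9 to 47.8) and 102 RPM (80.4 to 128), and the intervals do not overlap. The ratio was 2.47-fold higher (1.86 to 3.23), or 1.28 log2. It stayed above 0 under all 6 scalings of the libraries, from 0.33 to 1.5, and reached 2-fold under 3 of them.

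The other tested member, vvi-miR399b, had 66.2 and 15.7 estimated reads, or 14.3 and 21.3 RPM. Its 1.49-fold higher level had an interval of 0.825 to 2.67, which includes no difference, and the log2 ratio became negative (-0.39) once the 5 most abundant entries were left out. ppe-miR399b_L-2R+2 had 8.5 and 2.83 estimated reads and was not tested. Its share was 2.10-fold higher, with an interval from 0.404 to 9.84. The deposited counts of all 3 miR399 entries held parts of reads, and they differ by 1 to 3 bases, so the division of reads among them is uncertain.
The share of ptc-miR399e within the family was 72.0% (66.4 to 77.5) of untreated reads and 80.2% (70.2 to 87.4) of salt reads. The ratio of ptc-miR399e to vvi-miR399b shifted 1.66-fold, with an interval from 0.855 to 3.17, so a change in the make-up of miR399 was not detectable at this depth. Summing over the 3 entries avoids the division of reads among them, although the sums, 266.3 and 93.7, still held parts of reads. Summed in this way, miR399 stood at 57.6 RPM (50.8 to 64.9) without salt and 128 RPM (103 to 157) with it. That was 2.21-fold higher (1.74 to 2.83), or 1.13 log2, ranked 33 from the lowest among 43 tested families. Of those families 30.2% were called higher. The miR399 sum reached 2-fold under 2 of the 6 scalings, and it stood at 0.17 without the 5 most abundant entries.

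The second phosphate family, miR827, went the other way. mdm-miR827 had 1012 untreated and 53 salt reads, where an equal share would give 161. Its level was 219 RPM (206 to 233) against 72.2 RPM (54.1 to 94.4). It was 3.03-fold lower (2.30 to 4.08), or -1.59 log2, and at least 2-fold lower under all 6 scalings, from -2.57 to -1.37. The longer ptc-miR827_L+3R-1_1ss23AC had 5.5 estimated untreated reads and 0 salt reads. At an equal share 0.873 salt reads would be reached, which is under the limit of 3, so no fold is given. The family sum had a log2 ratio of -1.59, ranked 5 from the lowest among the 43 tested families, of which 16.3% were called lower.

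The sulphate family miR395 showed opposite directions in its leading 3′ and 5′ arm entries. The entry known as the active strand, ppe-miR395c, had 708 untreated and 42 salt reads, against 112 at an equal share. This gave 153 RPM (142 to 165) and 57.2 RPM (41.2 to 77.3), 2.68-fold lower (1.96 to 3.75) or -1.40 log2. It was at least 2-fold lower under all 6 scalings, from -2.39 to -1.19.
The 5′ arm entry ptc-MIR395d-p5 had 106 untreated and 51 salt reads, against 16.8 at an equal share. Its level was 22.9 RPM (18.8 to 27.7) and 69.5 RPM (51.7 to 91.4), 3.03-fold higher (2.13 to 4.27) or 1.56 log2. It stayed above 0 under all 6 scalings and reached 2-fold under 5, with 0.62 without the 5 most abundant entries. The remaining miR395 entries were at the limit of detection, with 0 and 1 reads for ptc-miR395b_R-3 and 2 and 0 reads for aly-miR395c-3p_1ss17GA.

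In the miR395 sum the lower ppe-miR395c outweighed the higher 5′ arm entry, and the sum stood at 177 RPM (165 to 189) and 128 RPM (103 to 157). It was 1.38-fold lower (1.11 to 1.73), or -0.46 log2, and -1.38 log2 without the 5′ arm entry. The 5′ arm entry made up 13.0% (10.8 to 15.5) of untreated miR395 reads and 54.3% (43.7 to 64.6) of salt miR395 reads. Its ratio to ppe-miR395c was 0.150 without salt and 1.21 with salt. This shift was 8.11-fold (5.0 to 13.1) and does not depend on the library totals, since both entries were read in the same libraries. ppe-miR395c has no listed precursor, so whether both entries came from the same hairpin is not known here.

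miR2111 lay in the middle of the table. ptc-miR2111a had 134 untreated and 27 salt reads, against 21.3 at an equal share. Its level was 29.0 RPM (24.3 to 34.3) and 36.8 RPM (24.2 to 53.5), and these intervals overlap. The 1.27-fold higher level had an interval from 0.807 to 1.93. Its log2 ratio of 0.33 was the median of all 115 tested entries, and its sign was positive under 3 of the 6 scalings and negative under the other 3.

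**Figure D2:**
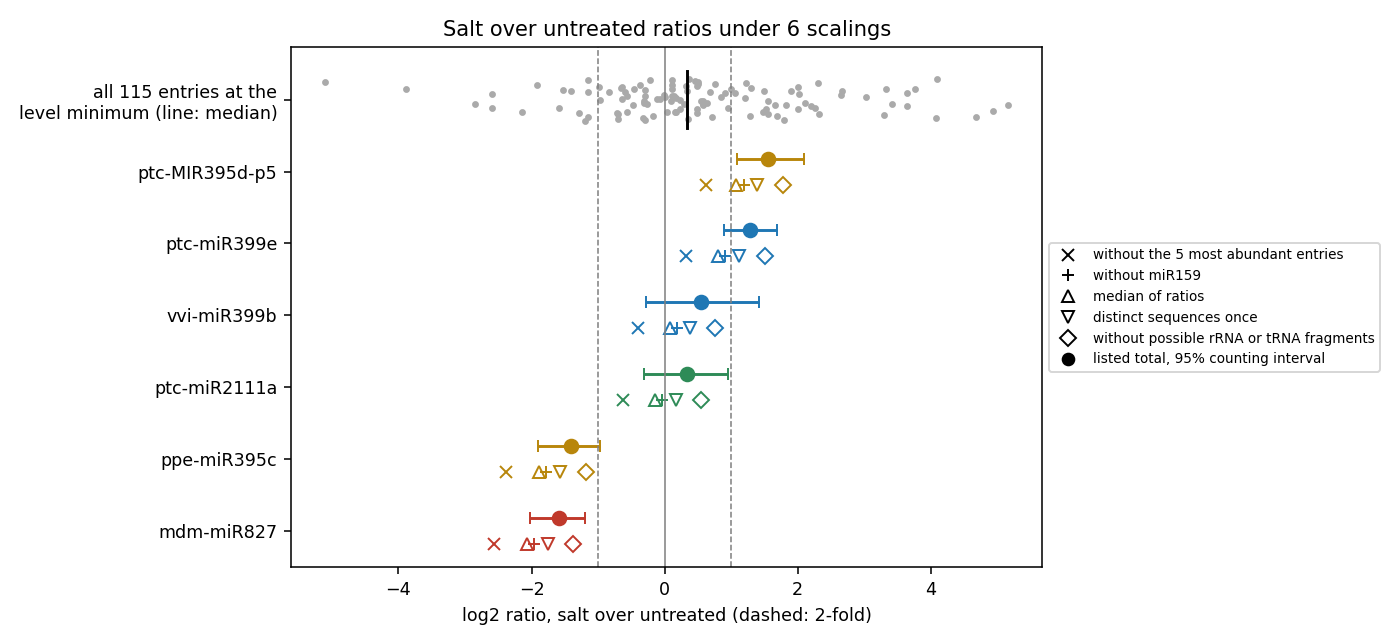
log2 ratio of salt over untreated for the 6 tested entries, with filled circles and 95% counting intervals for the listed total and open marks for the 5 other scalings. The top row shows all 115 entries at the level minimum with their median at 0.33, dashed lines mark 2-fold, and mdm-miR827 and ppe-miR395c stay left of the lower line under every scaling shown.

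The families were also compared with each other inside each library, which removes the choice of library total. There were 6 pairs, and the interval of the shift left out 1 in all 6. These intervals were not adjusted for the number of pairs, and they do not include differences between replicate plants. The 6 pairs reuse the ratios of 4 families, so they are not separate results. The share of such intervals over pairs of all 43 tested families was not computed. Of those families, 30.2% were called higher and 16.3% lower, so the count is not read as particular to these 4. The largest shift was between the phosphate families. The read ratio of miR399 to miR827 was 0.262 without salt and 1.77 with salt, a 6.75-fold shift (4.65 to 9.95). miR399 stood 3.05-fold higher against miR395 (2.20 to 4.27) and 1.75-fold higher against miR2111 (1.07 to 2.94). miR827 stood 3.87-fold lower against miR2111 (2.26 to 6.50), and miR395 stood 2.21-fold higher against miR827 (1.54 to 3.20). miR395 stood 1.75-fold lower against miR2111 (1.05 to 2.83), where the 5′ arm entry is included. Between leading entries, ptc-miR399e shifted 7.49-fold (4.99 to 11.2) against mdm-miR827 and 6.61-fold (4.29 to 10.2) against ppe-miR395c.

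**Figure D3:**
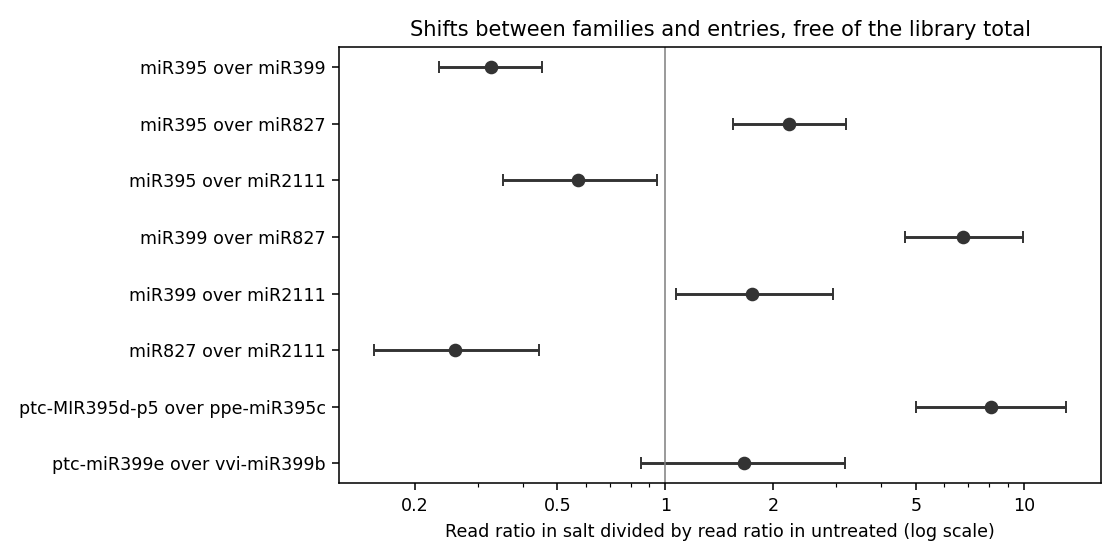
Shift in the ratio of reads between families (upper 6 rows) and between entries of a family (lower 2 rows), as the ratio in the salt library divided by the ratio in the untreated library, on a log axis with exact 95% counting intervals. Values right of 1 mean that the first-named item took a larger part in the salt library, as with miR399 over miR827 at 6.75, and the interval of ptc-miR399e over vvi-miR399b spans 1.

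In the degradome library, 7 of the 10 entries had at least 1 listed cleavage site (70.0%), against 100 of all 205 entries (48.8%). Sites in a known target were listed for 3 of the 4 families, and miR827 had no site at all. Because the library mixed RNA of both conditions, it gives no comparison between them. The table gives gene symbols drawn from several species, of which those named here are read as Arabidopsis symbols, and positions on transcripts that it does not name. Of the 102 pairs, 98 (96.1%) placed the cut opposite base 10 of the miRNA, the usual position for AGO-directed cleavage in plants, against 863 of 981 (88.0%) in the whole table. The other 4 pairs, all in RFS2, placed it opposite base 11. How far the deposited calling required this position is not stated.

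miR395 had 21 distinct sites in 7 named genes and 1 unnamed transcript. ATP sulfurylase genes led them. APS1 had 12 positions, and 8 of these, from 345 to 572, carried 84 raw reads each, while the other 4, from 383 to 563, carried 2 reads each. Position 375 was listed 2 times for each entry and is counted once. APS3 had 1 position, 373, also with 84 reads. The recurrence of exactly 84 reads means that the positions cannot be treated as separate cuts, and whether they are the same reads placed on several transcripts was not tested. Among 192 named symbols ranked by their best site, 16, APS1 and APS3 included, had at least as many reads as APS1, and the median symbol had 3. The alignment score at the APS1 and APS3 sites was 3.5 for ppe-miR395c, on a scale whose listed values ran from 0 to 4 with a median of 3.5. Lower scores are taken here as closer pairing, which the header does not spell out.

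The sulphate transporter SULTR2;2 had the lowest miR395 score, 2, at position 141, but only 2 reads. Weaker-scoring miR395 sites, all at 4, lay in the GDSL lipase genes LTL1 (positions 868 and 1025) and At4g28780 (position 875), with 13 reads each. RFS2, a raffinose synthase gene, had 2 positions with 1 read each. NCED3, which encodes an enzyme of abscisic acid synthesis, had 1 read at position 1114, and it was listed for the 18-base ptc-miR395b_R-3 alone.

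The 3 entries of the miR395 3′ arm shared their sites in APS1, APS3 and SULTR2;2, so that reads there cannot be assigned to an entry. All 17 sites of ppe-miR395c were also listed for ptc-miR395b_R-3 with equal scores. For aly-miR395c-3p_1ss17GA, which ends in the C21T change shown above, 14 shared sites scored 0.5 higher at every site. The 3 sites it lacked, in LTL1 and At4g28780, had a score of 4 with ppe-miR395c, and adding 0.5 gives 4.5, above the highest listed score of 4. The 2 RFS2 sites went against this order, since they were listed for aly-miR395c-3p_1ss17GA and ptc-miR395b_R-3 at a score of 4 but not for ppe-miR395c. In the small RNA libraries aly-miR395c-3p_1ss17GA had 2 reads in all and ptc-miR395b_R-3 had 1. Both still appeared beside the sites with 84 reads. The 5′ arm entry ptc-MIR395d-p5, which was higher in the salt library, had no listed site.

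All miR399 sites, 14 in number, lay in UBC24, between positions 116 and 797. Of these, 5 carried 3 reads, 5 carried 2 reads and 4 carried 1 read. With 3 distinct read numbers over 14 positions on unnamed transcripts, the positions cannot be treated as separate cuts. Whether they are the same reads placed on several transcripts was not tested. Among the 192 symbols, 109 (56.8%), UBC24 included, had a best site with at least as many reads, so UBC24 was not far from the median symbol. The scores separated the entries. vvi-miR399b and ppe-miR399b_L-2R+2 scored 2.5 at 12 positions and 3 at the positions 679 and 699, so that G13A left the score as it was at all 14 positions. For ptc-miR399e, which differs from vvi-miR399b by T1C and G21C, the score was 4 at the 12 shared positions, 1.5 higher at each. Positions 679 and 699 were not listed for it, and 3 plus 1.5 gives 4.5, again above the highest listed score. The miR399 entry with the most reads in both libraries thus had the highest score, and vvi-miR399b, which supplied 24.8% of untreated and 16.7% of salt miR399 reads, had the lower one.

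miR2111 had the lowest score of the 3 families with sites. ptc-miR2111a had 5 sites, 4 in At3g27150 at positions 438, 444, 481 and 484 and 1 in At1g74510, which also encodes a kelch-repeat F-box protein, at position 439. Each carried 31 reads at a score of 1.5. In the whole table, 10 of 43 numbered families with a site had a best score of 1.5 or less. Of the 192 symbols, 32 (16.7%), At3g27150 included, had at least as many reads at their best site as At3g27150. As with APS1, the recurring 31 reads do not show 5 separate cuts.

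**Figure D4:**
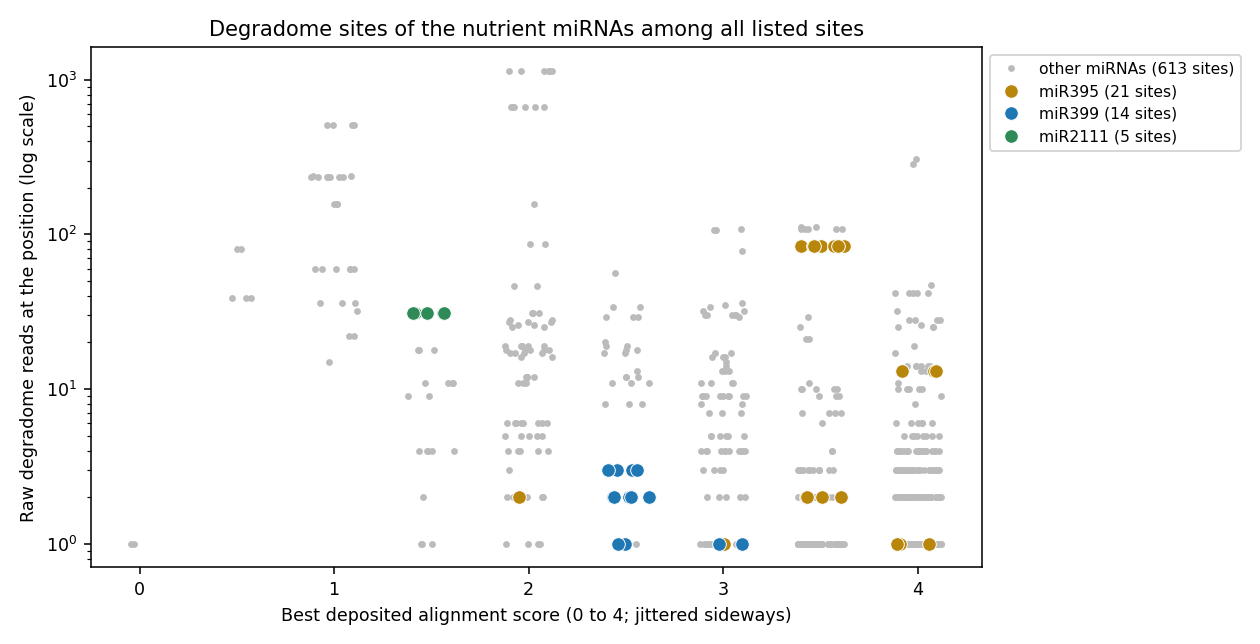
Raw degradome reads (log axis) against the best deposited alignment score for each of 653 distinct sites, with miR395, miR399 and miR2111 sites in colour and other miRNAs in grey. Points are shifted sideways by a small random amount. The miR2111 sites lie at a score of 1.5 with 31 reads, the miR399 sites at 2.5 to 3 with 1 to 3 reads, and the leading miR395 sites at 3.5 with 84 reads.

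A list of 32 symbol patterns for sulphate assimilation, phosphate signalling and shoot-to-root signalling was searched in the whole degradome table. It found 5 symbols, namely APS1, APS3, SULTR2;2, UBC24 and At3g27150. The list held APS1, APS3, UBC24 and At3g27150 by name and was chosen with earlier results of these data known. Finding them is therefore not an independent result. All 89 pairs in these symbols belonged to the 4 families, and 0 belonged to any other listed entry. The same held for all 10 named symbols with a site of these families. How many of all 192 named symbols were listed for a single family was not counted, so neither count is read as particular to these families. No site was listed for the textbook miR395 target SULTR2;1, for the miR827 targets NLA or the SPX-MFS transporters, or for the phosphate regulators PHR1 and PHO1. The positions in UBC24 carried at most 3 reads each, against up to 84 in APS1 and 31 in At3g27150.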

How the data were processed

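Small RNA levels started from the deposited estimated counts per mature sequence, headed raw per the file headers, and library columns were matched to samples through the titles. No source used here names the trimming, mapping or calling tools. The degradome table gave raw counts of reads per cleavage position and an alignment score, per the file headers, and a deposited signal headed TPB that was not used. Levels are counts per 1000000 reads of all 205 listed entries, with a pseudocount of 1 RPM for log2 ratios and a minimum mean level of 10 RPM. Intervals for ratios used rounded counts and the conditional binomial distribution, and those for levels and shares were Clopper-Pearson. Shifts between families used the exact interval of the odds ratio. The 5 other scalings left out the 5 most abundant entries, miR159, repeated sequences or possible rRNA or tRNA fragments, or used the median of ratios over entries with at least 10 reads in both libraries. Entries tested under them were those at the minimum with the listed total. The code for the intervals of ratios was tested on simulated whole counts. That test did not cover the intervals of levels, shares and odds ratios, or counts with parts of reads. Folding used ViennaRNA 2.7.2, and statistics used Python 3.11.15 with SciPy 1.17.1. All member entries and sites were to be accounted for, with values in full for those at 10 RPM or 10 reads. Members, lists and alternatives were chosen with earlier results of these data known.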

Additional observations from a re-analysis of the deposited data

How the results depend on the processing

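No paired analysis was possible because each condition has 1 library, and leaving out a replicate was not possible for the same reason. Among the log2 ratios, most changes came with the scaling, while the counts of sites and symbols moved with the score, read and counting rules. Without the 5 most abundant entries the log2 ratios were -1.44 for miR395, 0.17 for miR399, -2.58 for miR827 and -0.63 for miR2111, the median over the 6 entries was -0.51, and 0 entries were higher. With the median of ratios they were -0.94 for miR395, 0.65 for miR399 and -2.07 for miR827, with 1 entry higher. Without miR159 they were -0.84 for miR395 and 0.76 for miR399, with 1 entry higher. miR395 stood at -1.38 with guide arm entries only. A 50 RPM minimum left 1 entry higher, and a 4-fold threshold left 0 higher and 0 lower. The 40 distinct sites became 21 at a score of 3 or less, 6 at 2 or less, 17 with at least 5 reads and 102 as listed pairs. Counted by symbol and read number, an alternative chosen after seeing the data, they were 14. Families with a site in a known target numbered 1 at a score of 2 or less. The 5 nutrient pathway symbols became 3 at a score of 3 or less, 2 at 2 or less and 3 with at least 5 reads. The cause was not tested. The other 49 values for these results stayed the same by the rule for their kind. Family ratios stayed within their counting interval and counts within 1.5 times. The median over the 6 entries has no counting interval, and it stayed within a range set by the median width of the entry intervals. For single entries 33 values stayed within their interval and 9 fell below it, none of them reversing a called entry. Salt reads of 27 to 75.2 per tested entry, apart from 15.7 for vvi-miR399b, limit the precision of every ratio.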

Other observations

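Values for other hairpins were set beside the leading miR395 entries after those had been seen. In 14 hairpins with both arms listed and at least 10 reads per arm and library, the arm with fewer untreated reads gained on its partner in 10. This selection favours gains. The salt library was shallower, so an arm with few untreated reads could enter only if its share was higher with salt. PC-3p-132858_18, with the largest shift, had 22 untreated and 71 salt reads. Choosing the arm by its untreated reads adds to this, so the count, range and median are not a neutral background. The shift ranged from 0.284-fold to 22.9-fold with a median of 2.07-fold, against 8.11-fold for ptc-MIR395d-p5 over ppe-miR395c. The last value is not a like measure, since these miR395 entries are not known to share a hairpin. The hairpins were read in the same 2 libraries and are not replicates, and no test was made.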
